A study of Homo sapiens with 6 samples.

Results

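Messenger RNA of 47 genes of the actin cytoskeleton and of its transcriptional control was followed in the human pancreatic beta cell line EndoC-βH1. The genes code for actins and proteins that bind them, for the transcription factors SRF and TEAD1 with their coactivators, for target genes of the coactivator YAP, and for a few galectins, annexins and S100A6. They were taken by gene symbol from a fixed list, which was chosen with some earlier results of these data known. In all, 47 of 47 were found among the 26485 gene symbols of the count table. Of these, 39 had enough counts to be tested and 8 had not.

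EndoC-βH1 is an established line of human beta cells that makes and secretes insulin. All 6 cultures were transduced with lentiCRISPRv2, a lentiviral vector that carries the Cas9 nuclease and an antibiotic resistance gene, and were kept as selected stable lines. In the 3 libraries labelled sgZHX3-3, with the genotype label ZHX3 KO, the vector held 1 guide RNA against the first coding exon of ZHX3, whose protein carries zinc fingers and homeodomains. In the 3 libraries labelled Empty, with the genotype label WT, it held no guide. The titles number 3 biological replicates a group but leave it unsaid whether each is a line of its own or a culture of 1 shared line, so the errors and p-values measure the spread between these libraries, which may be technical.

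As background, the actin cytoskeleton and its genes regulate each other. Monomeric actin holds the coactivators of the MRTF family in the cytoplasm. When monomers are drawn into filaments, MRTF is released, enters the nucleus and switches on genes together with SRF, which binds DNA at CArG boxes. Filament tension also keeps YAP1 and its relative TAZ (gene WWTR1) in the nucleus, where they act through the TEAD factors, while the Hippo kinases LATS1 and LATS2 exclude them. In beta cells, cortical actin filaments are known to limit the access of insulin granules to the plasma membrane, and beta cells of the adult islet are known for very low YAP1.

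The libraries labelled sgZHX3-3 held 45101454, 50688946 and 61051884 counts, against 46624747, 58167871 and 48299163 counts in those labelled Empty. ZHX3 RNA went against the genotype label: it was at 167, 179.98 and 183 CPM (counts in each 1000000 of the TMM-scaled library) in the libraries labelled sgZHX3-3, against 106, 109.6 and 101 CPM in those labelled Empty (log2 fold change 0.75, standard error 0.0566, edgeR adjusted p = 1.62e-05). RNA level does not report on the protein or the edit, and directions below follow the labels. Each group held a closer pair of libraries and 1 that stood apart, library 3 of those labelled sgZHX3-3 and Empty 1. A chi-square of the counts per gene was 21.3 and 12.9 between library 3 labelled sgZHX3-3 and libraries 1 and 2 of its group, against 4.59 between those. It was 23.3 and 22.4 between Empty 1 and the other Empty libraries, against 3.63 between Empty 2 and Empty 3, while Empty 1 gave 19.1, 21.6 and 28.8 against libraries 1, 2 and 3 labelled sgZHX3-3. The chi-square also grows with depth, and library 3 labelled sgZHX3-3 was the deepest, so these values rank likeness only roughly. No pair of libraries agreed closely enough to be 1 library deposited again. A list of 13 heat shock and NRF2 stress genes summed to 2752, 2887 and 2500.4 CPM in the libraries labelled sgZHX3-3. In those labelled Empty the sum was 2803, 3955 and 4300.2 CPM. Empty 1 thus lay within the range of the sgZHX3-3 libraries in this sum. Taken singly, 11 of the 13 genes had groups that did not overlap, against 32.0% of all tested genes.

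The label of the cells as beta cells was checked on markers. The 10 beta cell markers summed to 35468 to 43597 CPM in the libraries labelled sgZHX3-3 and to 30624 to 38518 CPM in those labelled Empty. Several members are also markers of smooth muscle cells or fibroblasts. The 8 fibroblast and stellate cell markers summed to 6.62 to 8.70 CPM in the libraries labelled sgZHX3-3 and 6.11 to 6.90 CPM in those labelled Empty. The 4 smooth muscle markers were at 0.465 to 0.642 CPM and 0.387 to 0.524 CPM in the same order, with ACTG2 at 0 in every library. The 4 endothelial markers reached at most 0.0802 CPM in a library labelled sgZHX3-3 and 0.0507 CPM in one labelled Empty, with CDH5 and KDR at 0. Duct cell markers summed to 72.7 to 77.4 CPM in the libraries labelled sgZHX3-3 and 66.3 to 73.8 CPM in those labelled Empty. Acinar cell markers, with PNLIP at 0, summed to 42.1 to 45.2 CPM in the libraries labelled sgZHX3-3 and 33.1 to 38.6 CPM in those labelled Empty. Leukocyte markers, nearly all CD68 and with CD3E at 0, were at 17.2 to 21.2 CPM in the libraries labelled sgZHX3-3 and 12.4 to 17.8 CPM in those labelled Empty. Alpha and delta cell markers were at 36.4 to 45.5 CPM in the libraries labelled sgZHX3-3 and 37.4 to 47.2 CPM in those labelled Empty. The acinar sum was higher in every library labelled sgZHX3-3, but only 1 of the 4 acinar markers had enough counts to be tested. The part of this sum in the results below was not tested. In bulk RNA, fewer cells of a type and less RNA per cell cannot be told apart.

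The comparison of the 2 groups asked which genes differ in RNA level between cells given the guide against ZHX3 and cells given the empty vector. Among the members, SYNPO, LGALS3 and ANXA2 fell and TPM1 rose in the libraries labelled sgZHX3-3, and 35 members did not pass the test (adjusted p below 0.05 over the 16199 genes tested, edgeR's quasi-likelihood test with Benjamini-Hochberg adjustment). The 4 called members make 10.3% of the 39 tested, while 12.1% of all tested genes were called. In direction, 1 member was called higher against 7.11% of all genes, and 3 were called lower against 4.98%. The low values of SYNPO and LGALS3 were known when the members were chosen, so these counts are a description only. Of all calls, 58.8% were higher, but scaling by library totals alone turned this to 41.5%. The members' groups did not overlap in 11 of 39 cases (28.2%), against 32.0% of all tested genes. At an unadjusted p under 0.05 there were 11 members of 39 and 4560 genes of 16199. DESeq2 added MYH10 to the called members and limma-voom added none. Shares this near the background are not a result about the members as a group. Their median log2 fold change was −0.03, against −0.0020 over all genes, with 15 above 0 and 24 below, and their median absolute log2 fold change was 0.11 against 0.13. Counts of calls by role below rest on at most 9 tested genes each. They are to be read beside the 12.1% called over all genes, and groups without overlap beside the 32.0%.

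**Figure D1:**
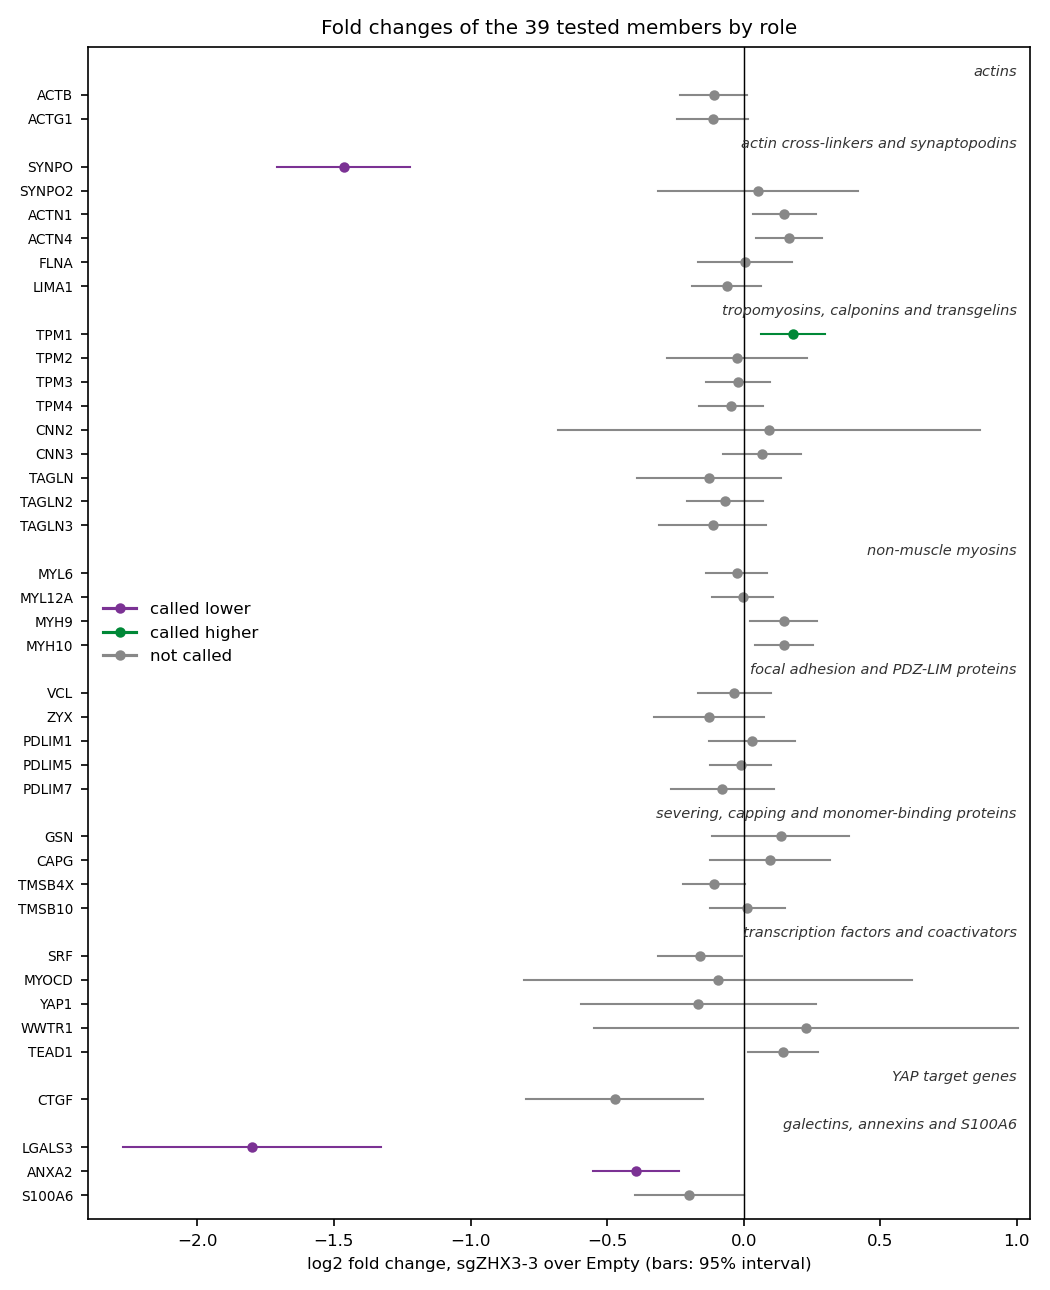
Log2 fold change of the 39 tested members (x axis, libraries labelled sgZHX3-3 over those labelled Empty), grouped by role, with 95% intervals from edgeR as bars and called members in colour. SYNPO at −1.46 and LGALS3 at −1.80 stand far left of the other members, which lie between −0.47 and 0.23.

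For the 35 members that were not called, the 95% interval of the fold change lay within 1.25-fold in either direction for 25, within 1.5-fold for 30 and within 2-fold for 34. The 5 with wider intervals than 1.5-fold were CNN2, MYOCD, YAP1, WWTR1 and CTGF. Of these, CNN2, MYOCD and WWTR1 averaged under 1 CPM in both groups. For each of the 5 the interval reached beyond 1.5-fold, so a change of that size may have gone uncalled. The members together took 0.702%, 0.71% and 0.719% of all counts in the libraries labelled sgZHX3-3, against 0.736%, 0.746% and 0.78% in those labelled Empty. The groups did not overlap in this share, most of which came from a few abundant genes described below. The share is of library totals without TMM scaling. With library totals only, the median log2 fold change was −0.04 over all tested genes and −0.06 over the tested members.

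Promoters of the members were searched for the binding motifs of the 2 factors, as a description of sequence. RefSeq's table (GRCh38.p14) gave windows of 300 bases, 250 before to 50 after a start, for 40 of the 47 members (70 windows). A CArG box, the SRF motif of 10 bases, was found in 6 of 70 member windows (8.57%) against 454 of 35116 windows of all genes (1.29%). The TEAD motif CATTCC, or GGAATG on the other strand, was found in 13 of 70 (18.6%) against 4928 of 35116 (14%). Both strands were searched, and only exact matches were counted. The end of CATTCC can overlap the start of a CArG box, and ACTN1 was the only member with both motifs. The windows below are shown because SYNPO and LGALS3 had the largest fold changes, while SRF, ACTG1 and CTGF hold the motifs and are textbook targets of SRF or YAP. Capitals mark a CArG box in SRF and ACTG1 and the TEAD motif in CTGF. The coordinates are chr5:150600826-150601125 (+) and chr5:150640410-150640709 (+) for the upstream and downstream start of SYNPO, chr14:55129002-55129301 (+) for LGALS3, chr6:43171019-43171318 (+) for SRF, chr17:81512750-81513049 (−) for ACTG1 and chr6:131951323-131951622 (−) for CTGF, which RefSeq lists as CCN2.
SYNPO upstream start: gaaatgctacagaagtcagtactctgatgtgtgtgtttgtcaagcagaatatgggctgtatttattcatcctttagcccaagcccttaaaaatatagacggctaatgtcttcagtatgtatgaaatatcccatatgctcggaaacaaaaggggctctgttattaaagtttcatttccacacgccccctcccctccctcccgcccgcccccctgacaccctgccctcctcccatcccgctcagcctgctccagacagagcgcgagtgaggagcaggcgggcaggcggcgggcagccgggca
SYNPO downstream start: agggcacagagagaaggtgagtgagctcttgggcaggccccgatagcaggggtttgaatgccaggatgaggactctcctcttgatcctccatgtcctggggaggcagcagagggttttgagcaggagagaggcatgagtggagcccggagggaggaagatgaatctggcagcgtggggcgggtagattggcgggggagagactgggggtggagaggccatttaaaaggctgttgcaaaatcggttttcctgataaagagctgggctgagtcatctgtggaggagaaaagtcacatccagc
LGALS3: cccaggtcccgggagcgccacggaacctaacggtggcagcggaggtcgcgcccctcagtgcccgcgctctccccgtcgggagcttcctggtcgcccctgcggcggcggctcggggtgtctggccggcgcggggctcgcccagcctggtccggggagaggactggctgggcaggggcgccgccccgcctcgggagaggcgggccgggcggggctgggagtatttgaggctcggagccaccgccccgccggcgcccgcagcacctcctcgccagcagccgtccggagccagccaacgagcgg
SRF: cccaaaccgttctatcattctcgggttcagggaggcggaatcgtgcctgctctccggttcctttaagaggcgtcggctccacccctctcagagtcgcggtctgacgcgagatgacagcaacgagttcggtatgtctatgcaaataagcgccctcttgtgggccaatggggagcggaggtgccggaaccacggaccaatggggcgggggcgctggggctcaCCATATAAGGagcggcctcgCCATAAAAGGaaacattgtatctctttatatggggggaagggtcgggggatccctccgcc
ACTG1: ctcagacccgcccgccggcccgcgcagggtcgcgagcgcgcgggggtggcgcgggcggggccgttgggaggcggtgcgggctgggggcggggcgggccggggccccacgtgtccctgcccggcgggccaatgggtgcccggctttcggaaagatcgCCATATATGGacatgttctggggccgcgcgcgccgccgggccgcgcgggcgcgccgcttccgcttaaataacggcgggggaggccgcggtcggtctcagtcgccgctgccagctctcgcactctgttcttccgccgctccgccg
CTGF: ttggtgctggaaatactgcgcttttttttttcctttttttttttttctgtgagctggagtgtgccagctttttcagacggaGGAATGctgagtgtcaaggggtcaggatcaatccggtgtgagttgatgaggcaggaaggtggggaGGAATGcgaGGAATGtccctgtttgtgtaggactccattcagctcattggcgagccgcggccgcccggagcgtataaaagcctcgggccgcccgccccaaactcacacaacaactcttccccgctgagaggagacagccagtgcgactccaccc

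The SRF window held 2 CArG boxes, which begin at −30 and −10 from the start, and ACTG1 held 1 at −94. CTGF held the TEAD motif 3 times, at −169, −104 and −95. Neither motif was in the windows of SYNPO or LGALS3, nor in those of the other called members, ANXA2 at chr15:60397937-60398236 (−) and TPM1 at chr15:63048239-63048538 (+). Most windows of all genes lack these motifs too, with 1.29% holding a CArG box and 14% the TEAD motif. No window was available for ACTB, MYL9, TAGLN, MYOCD, TEAD1, CYR61 and LGALS1, so these were not searched. Among the members searched, the 6 with a CArG box were ACTG1, ACTN1, FLNA, TPM4, CNN2 and SRF. Of these 6, 0 were called, with log2 fold changes from −0.16 to 0.15 and unadjusted p-values under 0.05 for ACTN1 (0.0163) and SRF (0.0444). Of the 13 members with the TEAD motif, 10 were tested and 0 were called, with log2 fold changes from −0.47 in CTGF to 0.15. As 12.1% of all tested genes were called, 0 calls among 6 or 10 genes cannot be told from the background.

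The factors and coactivators at the head of the pathway did not pass the test, 0 of 5 tested, with 2 at an unadjusted p under 0.05. SRF, the factor that binds CArG boxes, had 47.7, 53.0 and 53.8 CPM in the libraries labelled sgZHX3-3, against 52.5, 58.0 and 62.1 CPM in those labelled Empty. Its groups overlapped, since Empty 1 lay below 2 of the libraries labelled sgZHX3-3 (log2 fold change −0.16, standard error 0.0716, adjusted p = 0.165). Without Empty 1 SRF passed at 0.0356 with a log2 fold change of −0.22. TEAD1, the DNA-binding partner of YAP, was the most abundant factor among the members with 278, 281 and 256 CPM in the libraries labelled sgZHX3-3, against 231, 262 and 244 CPM in those labelled Empty. Library 3 labelled sgZHX3-3 was below Empty 2, and the difference did not pass (0.14, adjusted p = 0.131).

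YAP1 itself was scarce, at 1.14, 1.42 and 1.13 CPM in the libraries labelled sgZHX3-3 and 1.33, 1.200 and 1.63 CPM in those labelled Empty (51 to 80 counts a library). WWTR1, which codes for TAZ, had 14 to 19 counts in the libraries labelled sgZHX3-3 and 10 to 22 in those labelled Empty. MYOCD, the coactivator of SRF in smooth and cardiac muscle, had 13 to 21 counts in the libraries labelled sgZHX3-3 and 12 to 25 in those labelled Empty. These coactivators thus reached at most 1.63 CPM in any library, with overlapping groups and adjusted p-values of 0.631, 0.723 and 0.887 for YAP1, WWTR1 and MYOCD. WWTR1 has an antisense gene that overlaps its exons, and without a stated strand setting the reads of the pair cannot be told apart.

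Of the 4 classical YAP target genes, only CTGF reached a testable count. CTGF codes for a secreted matricellular protein, also called CCN2. It had 2.35, 1.88 and 2.27 CPM in the libraries labelled sgZHX3-3, from 105, 94 and 137 counts, against 2.69, 3.30 and 3.01 CPM in those labelled Empty, from 126, 195 and 148 counts. Each library labelled sgZHX3-3 was below each labelled Empty, with Empty 1 the nearest. The log2 fold change of −0.47 (standard error 0.150) just missed the threshold with an adjusted p of 0.0582. It passed without Empty 1 (0.0298) and with library totals only (0.0433), and was at −0.31 (0.563) with Empty 2 and Empty 3 both left out.

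The other 3 YAP targets were close to background. CYR61, a relative of CTGF also called CCN1, had 3, 7 and 4 counts in the libraries labelled sgZHX3-3 and 1, 10 and 9 in those labelled Empty. ANKRD1, a muscle ankyrin repeat protein, had 0, 1 and 0 counts in the libraries labelled sgZHX3-3 and 0, 6 and 5 in those labelled Empty, so all but 1 of its counts came from Empty 2 and Empty 3. AMOTL2, an angiomotin that holds YAP at cell junctions, had 4, 6 and 5 counts in the libraries labelled sgZHX3-3 and 9, 15 and 4 in those labelled Empty.

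Neither tested actin gene was called, and neither had an unadjusted p under 0.05. ACTB, the cytoplasmic β-actin, had 659.6, 669.7 and 660.1 CPM in the libraries labelled sgZHX3-3, against 673, 704 and 769.6 CPM in those labelled Empty. The groups did not overlap, but Empty 1 lay within a few CPM of the highest library labelled sgZHX3-3 (log2 fold change −0.11, 95% interval −0.23 to 0.01, adjusted p = 0.222). ACTG1, the cytoplasmic γ-actin, had 1926, 1937 and 1915 CPM in the libraries labelled sgZHX3-3, against 1912, 2098 and 2241 CPM in those labelled Empty. The 3 libraries labelled sgZHX3-3 lay close together and Empty 1 was just below them (−0.11, −0.24 to 0.02, adjusted p = 0.243). Without Empty 1 ACTG1 passed at 0.0309, with a log2 fold change of −0.17. ACTB and ACTG1 code for nearly identical proteins and have many processed pseudogenes, so the split of reads between them is uncertain. ACTA2, smooth muscle α-actin and a classical SRF target, had 0 to 3 counts a library and was not tested.

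**Figure D2:**
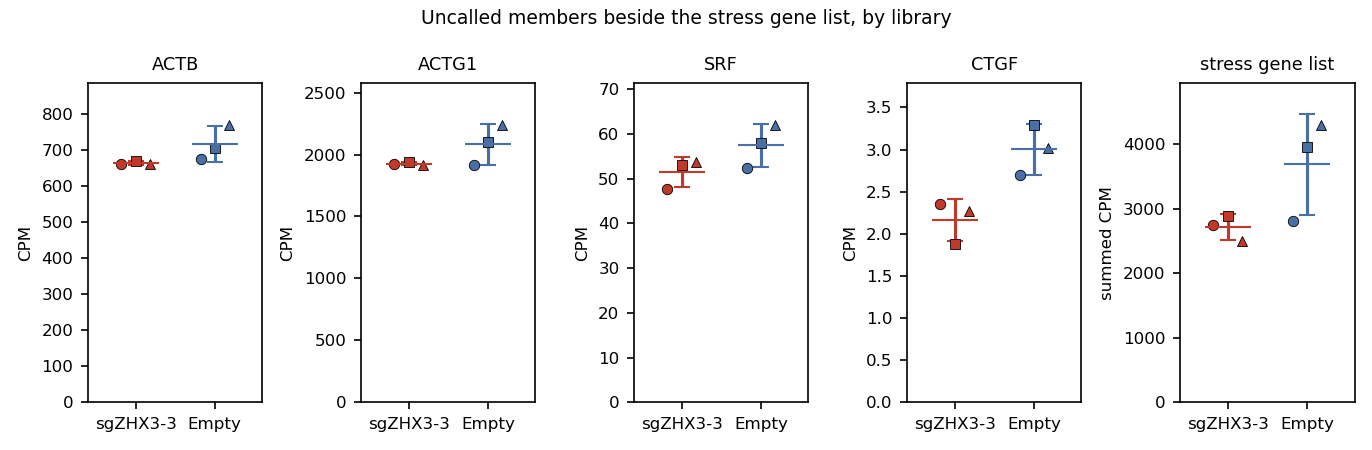
CPM by library of 4 members that were not called (ACTB, ACTG1, SRF, CTGF) and the summed CPM of the 13 stress genes, with the libraries labelled sgZHX3-3 left and those labelled Empty right. Points are single libraries (circle, square and triangle for replicates 1, 2 and 3), with the mean as a line and the SD as a bar (n = 3). In each panel Empty 1 is the Empty library with the lowest value, and for the stress genes it has 2803 CPM against 3955 and 4300.2 CPM in the other Empty libraries.

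In these 4 genes and in the sum of the stress list Empty 1 was the lowest Empty library. The 4 genes do not stand for all members. In others, among them SYNPO, TMSB4X, TAGLN2, S100A6 and GSN, Empty 1 was the highest Empty library. Whether the spread of the Empty libraries in stress genes plays a part in the values of ACTB, ACTG1, SRF or CTGF was not tested.

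Among the actin cross-linkers and synaptopodins, 1 of 6 was called, SYNPO, whose low value was known when the members were chosen. SYNPO codes for synaptopodin, an actin-associated protein known from the foot processes of kidney podocytes and the spine apparatus of neurons. It lies at chr5:150601080-150659220 on the plus strand (hg38, GENCODE release 29) and overlaps no other counted gene in its exons. SYNPO fell to 4.14, 4.29 and 4.86 CPM in the libraries labelled sgZHX3-3, against 13.8, 11.1 and 12.0 CPM in those labelled Empty. The highest library labelled sgZHX3-3 was below every library labelled Empty by more than the spread within either group. The counts behind these were 185, 214 and 293 in the libraries labelled sgZHX3-3 and 646, 654 and 589 in those labelled Empty. The log2 fold change was −1.46 (standard error 0.112, 95% interval −1.71 to −1.22, edgeR adjusted p = 1.62e-05), so that the level fell by 63.8%. It stayed between −1.54 and −1.37 with any single library left out and was −1.63 with Empty 2 and Empty 3 both left out. Unlike CTGF or ACTG1, SYNPO had its highest level in Empty 1.

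Its relative SYNPO2, an actin-bundling protein of muscle Z-discs, was at 2.06, 1.99 and 1.83 CPM in the libraries labelled sgZHX3-3 and 1.54, 2.13 and 1.96 CPM in those labelled Empty, with overlapping groups (adjusted p = 0.878). The α-actinins, which cross-link filaments into bundles, were both slightly above Empty without passing the test. ACTN4 had 243, 253 and 278 CPM in the libraries labelled sgZHX3-3, against 231, 229 and 230.4 CPM in those labelled Empty. The groups did not overlap, and the log2 fold change of 0.17 (adjusted p = 0.0736) passed only when library 1 labelled sgZHX3-3 was left out (0.0470). ACTN1 had 97.7, 101 and 104 CPM in the libraries labelled sgZHX3-3, against 87.7, 93.7 and 91.8 CPM in those labelled Empty, again without overlap (0.15, adjusted p = 0.0914). Filamin A, which joins filaments into networks and links them to membranes (FLNA, 0.01), and LIMA1, which stabilises filament bundles (−0.06), had adjusted p-values of 0.976 and 0.526 and overlapping groups.

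TPM1 was the only one of 9 tested tropomyosins, calponins and transgelins to pass. Tropomyosins are coiled-coil proteins that lie along actin filaments and decide which motors and severing proteins reach them. TPM1, at chr15:63042632-63071915 (+), had 117, 121 and 110.2 CPM in the libraries labelled sgZHX3-3, against 101, 102 and 105 CPM in those labelled Empty. The groups did not overlap, and the log2 fold change was 0.18 (standard error 0.0547, adjusted p = 0.0482), or 13.4% more. This call was lost without sgZHX3-3 1 or 2 or without Empty 2 or 3 (adjusted p from 0.0963 to 0.232), with library totals only (0.0985) and with Empty 2 and Empty 3 both left out (0.280, adjusted p-values), while the log2 fold change stayed between 0.15 and 0.22 with any 1 library left out.

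The other tropomyosins were within a few percent of Empty. TPM3 averaged 221 ± 9.18 CPM in the libraries labelled sgZHX3-3 and 224 ± 8.94 CPM in those labelled Empty (SD, n = 3 each). TPM4 averaged 139 ± 3.49 CPM and 144 ± 6.59 CPM in the same order. TPM2 was the scarcest, at 7.46 ± 1.19 CPM and 7.63 ± 0.454 CPM. Their log2 fold changes were −0.02, −0.05 and −0.02, with overlapping groups and adjusted p-values from 0.622 to 0.922.

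Transgelins and calponins, actin-binding proteins known as markers of smooth muscle, were dominated by TAGLN2, the form of non-muscle cells. TAGLN2 averaged 583 ± 30.5 CPM in the libraries labelled sgZHX3-3 and 612 ± 51.9 CPM in those labelled Empty, and TAGLN3, the neuronal form, averaged 24.4 ± 1.14 CPM and 26.4 ± 3.63 CPM. TAGLN, the smooth muscle form and a classical SRF target, had only 4.14, 4.27 and 4.48 CPM in the libraries labelled sgZHX3-3 and 4.85, 4.12 and 5.15 CPM in those labelled Empty, and its exons overlap those of PCSK7 on the other strand. The 3 had log2 fold changes of −0.07, −0.11 and −0.13 with overlapping groups and adjusted p-values of 0.529, 0.452 and 0.537. CNN3, the calponin of non-muscle cells, averaged 53.0 ± 4.26 CPM and 50.5 ± 1.41 CPM (log2 fold change 0.07, adjusted p = 0.544). CNN2 had 12 to 31 counts in the libraries labelled sgZHX3-3 and 15 to 30 in those labelled Empty, and smooth muscle calponin, CNN1, had 4, 3 and 1 counts in the libraries labelled sgZHX3-3 and 1, 1 and 0 in those labelled Empty and was not tested.

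**Figure D3:**
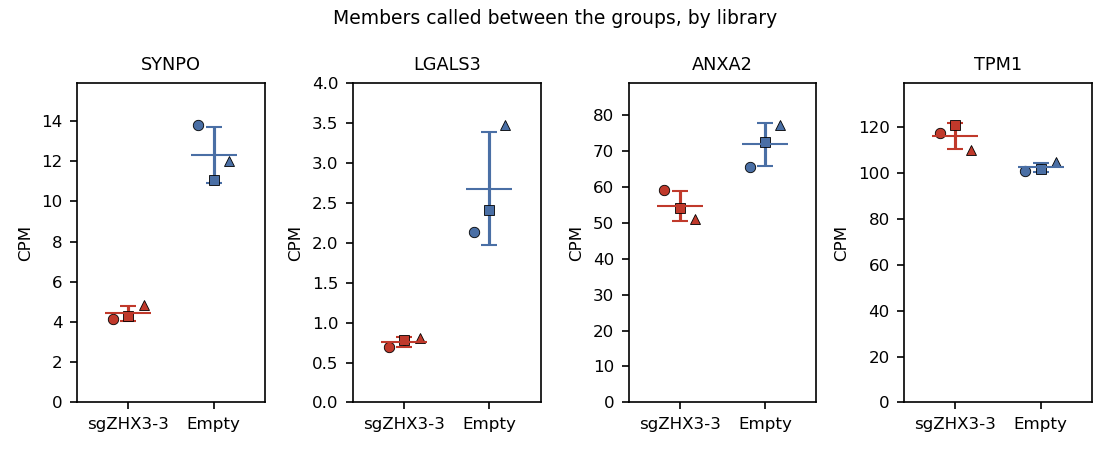
CPM by library of the 4 called members, with the libraries labelled sgZHX3-3 left and those labelled Empty right, and each y axis from 0. Points are single libraries (circle, square and triangle for replicates 1, 2 and 3), with the mean as a line and the SD as a bar (n = 3). No pair of groups overlaps. In SYNPO the gap between the groups is wider than the range of either, and TPM1 differs by 13.4%.

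Of the 4 tested genes of non-muscle myosin II, the motor that contracts actin filaments, 0 were called and 2 had an unadjusted p under 0.05. Both heavy chains were about 1.11-fold above Empty. MYH10, the heavy chain of non-muscle myosin IIB, had 284, 302 and 300.04 CPM in the libraries labelled sgZHX3-3, against 267, 269 and 263 CPM in those labelled Empty. It missed the threshold narrowly (log2 fold change 0.15, standard error 0.0488, adjusted p = 0.0656) and passed with DESeq2 (0.0492) and without Empty 1 (0.0413). MYH9, the heavy chain of non-muscle myosin IIA, had 209.7, 223 and 226 CPM in the libraries labelled sgZHX3-3, against 186, 202 and 207 CPM in those labelled Empty (0.15, adjusted p = 0.109). Neither heavy chain's groups overlapped, which also held for 32.0% of all tested genes.

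The light chains lay nearer to Empty, but heavy and light chains were not compared by a test. MYL6, the essential light chain, averaged 418 ± 10.7 CPM in the libraries labelled sgZHX3-3 and 426 ± 18.4 CPM in those labelled Empty, and MYL12A, a regulatory light chain, averaged 80.6 ± 0.248 CPM and 80.8 ± 2.51 CPM in the same order. Their 95% intervals were −0.14 to 0.09 and −0.12 to 0.11 on the log2 scale. MYL6 shares exonic sequence with MYL6B on the same strand, and MYL12A is nearly identical to its neighbour MYL12B, so both counts are uncertain. MYL9, the regulatory light chain of smooth muscle, had at most 1 count in any library.

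The 5 focal adhesion and PDZ-LIM genes were not called either, with 0 at an unadjusted p under 0.05, and their groups overlapped in every case. Vinculin (VCL), which couples integrin adhesions to actin, averaged 106 ± 2.43 CPM in the libraries labelled sgZHX3-3 and 108 ± 8.13 CPM in those labelled Empty. Zyxin (ZYX), a LIM protein of adhesions and stress fibres, averaged 16.8 ± 2.08 CPM and 18.4 ± 1.14 CPM in the same order. PDLIM5, the most abundant of the PDZ-LIM adaptors that sit on α-actinin, had 101, 97.5 and 94.5 CPM in the libraries labelled sgZHX3-3, against 99.2, 99.1 and 96.8 CPM in those labelled Empty. PDLIM1 and PDLIM7 averaged 24.7 ± 1.37 and 19.3 ± 1.79 CPM in the libraries labelled sgZHX3-3, against 24.1 ± 1.45 and 20.4 ± 1.65 CPM in those labelled Empty. Log2 fold changes over these 5 ran from −0.13 in ZYX to 0.03 in PDLIM1, with the smallest adjusted p at 0.407 for ZYX. VCL overlaps AP3M1 and ZYX overlaps EPHA1 on the opposite strand in exonic sequence.

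Proteins that sever or cap filaments or hold monomers gave 0 calls of 4 tested and 0 at an unadjusted p under 0.05. TMSB4X codes for thymosin β4, which sequesters actin monomers. It had 599, 591 and 587 CPM in the libraries labelled sgZHX3-3, against 669, 605 and 642 CPM in those labelled Empty, without overlap of the groups (log2 fold change −0.11, 95% interval −0.22 to 0.0031, adjusted p = 0.189). Its relative TMSB10 averaged 255 ± 20.4 CPM in the libraries labelled sgZHX3-3 and 253 ± 11.6 CPM in those labelled Empty. The thymosins have processed pseudogenes that can take or lend reads. Gelsolin (GSN), which severs filaments and caps their ends, was the least even of the 4 within groups, at 101, 108 and 131 CPM in the libraries labelled sgZHX3-3 and 120.3, 95.1 and 94.9 CPM in those labelled Empty. CAPG, a capping relative of gelsolin, had 8.73, 8.04 and 10.04 CPM in the libraries labelled sgZHX3-3 and 8.53, 8.06 and 8.53 CPM in those labelled Empty. GSN, CAPG and TMSB10 had overlapping groups and adjusted p-values of 0.476, 0.575 and 0.915.

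LGALS3 and ANXA2 fell among the galectins, annexins and S100A6, 2 of 3 tested, while 4.98% of all tested genes were called lower. The low value of LGALS3 was known when the members were chosen, so this count is a description only. LGALS3 codes for galectin-3, a lectin that binds β-galactosides on glycoproteins outside the cell and on damaged vesicles inside it. At chr14:55124110-55145413 (+), it was scarce in both groups. Levels were 0.694, 0.782 and 0.813 CPM in the libraries labelled sgZHX3-3, from 31, 39 and 49 counts, against 2.14, 2.42 and 3.48 CPM in those labelled Empty, from 100, 143 and 171 counts. Every library labelled sgZHX3-3 was below 1 CPM and every one labelled Empty above 2 CPM. The log2 fold change of −1.80 (standard error 0.218, 95% interval −2.27 to −1.33, adjusted p = 3.22e-04) means that the level fell by 71.3%. It ran from −1.93 to −1.57 with any 1 library left out and was −1.48 (adjusted p = 0.0280) with Empty 2 and Empty 3 both left out. Galectin-1 (LGALS1), its relative, had only 11, 3 and 6 counts in the libraries labelled sgZHX3-3 and 8, 8 and 8 in those labelled Empty and was not tested.

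ANXA2 codes for annexin A2, which binds phospholipids in the presence of calcium and links membranes to actin. The gene lies at chr15:60347134-60402883 (−) and has processed pseudogenes elsewhere. Its level was 59.1, 54.0 and 51.0 CPM in the libraries labelled sgZHX3-3, against 65.5, 72.5 and 77.3 CPM in those labelled Empty. The groups did not overlap, with Empty 1 nearest to the libraries labelled sgZHX3-3 (log2 fold change −0.39, standard error 0.0730, adjusted p = 0.00477). The call held with any 1 library left out, between −0.45 and −0.33, and was lost with Empty 2 and Empty 3 both left out (−0.26, adjusted p = 0.228). Empty 1 was also the lowest Empty library in the stress gene sum, and the part of that difference in the value of ANXA2 was not tested.

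S100A6, a small calcium-binding protein, had 312, 341 and 401 CPM in the libraries labelled sgZHX3-3, against 445, 366 and 399 CPM in those labelled Empty. The groups overlapped because library 3 labelled sgZHX3-3 was above Empty 2 and Empty 3, and the difference did not pass (−0.20, adjusted p = 0.181). Without that library it did (−0.30, 0.0403). Annexin A1 (ANXA1) had at most 1 count in any library.

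Levels were set between genes on a rough scale, per kilobase of annotated exons. The length joins the exons of all annotated transcripts (496 bases in TMSB10, 12876 in TPM1). It can exceed that of the RNA made in these cells, so the order is approximate. ACTG1 was the most abundant member at 643 CPM per kb in the libraries labelled sgZHX3-3 and 696 in those labelled Empty. TMSB10 (515 and 509.97), S100A6 (362 and 415), TMSB4X (347 and 375), TAGLN2 (235 and 246) and ACTB (188 and 203) followed, in CPM per kb and the same order of groups. The order thus opened with a cytoplasmic actin and a monomer-binding thymosin, and among transgelins the non-muscle form TAGLN2 was far above TAGLN (1.10 and 1.202 CPM per kb). The smooth muscle forms ACTA2, CNN1 and MYL9 were among the lowest, at 0.00558, 0.0192 and 0.00196 CPM per kb in the libraries labelled sgZHX3-3, against 0.00874, 0.00442 and 0.00200 in those labelled Empty. YAP1 (0.196 and 0.220) and WWTR1 (0.0398 and 0.0330) were far below TEAD1 (26.4 and 23.9) and SRF (12.3 and 13.7). SYNPO and LGALS3, the members with the largest fold changes, were both low, at 0.432 and 0.318 CPM per kb in the libraries labelled sgZHX3-3, against 1.198 and 1.12 in those labelled Empty.

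**Figure D4:**
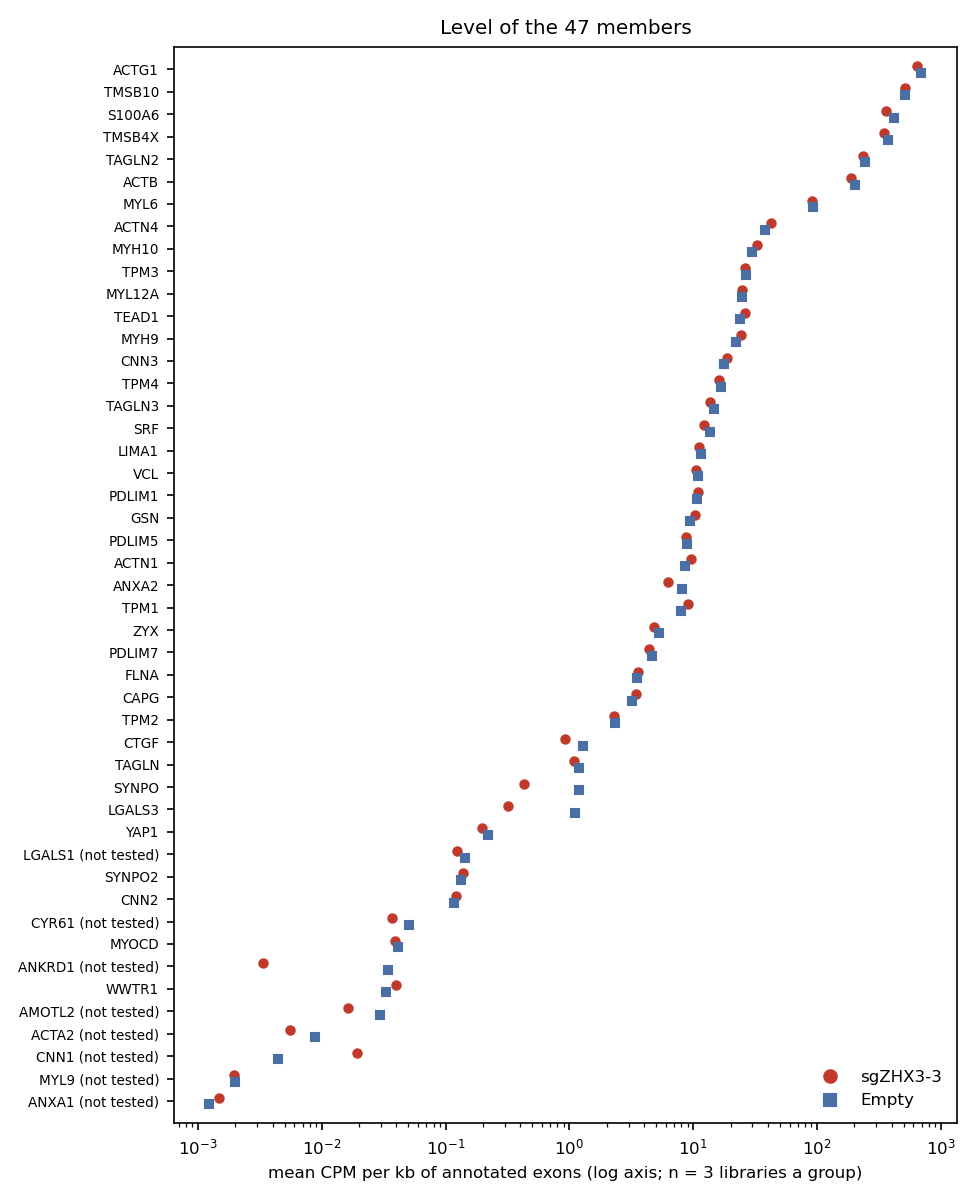
Mean CPM per kilobase of annotated exons (log axis, n = 3 libraries a group) of the 47 members, in order of their level in Empty, with circles for the libraries labelled sgZHX3-3 and squares for those labelled Empty. ACTG1 leads at 643 and 696, and the 8 untested members all lie below YAP1.

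Genes around the members were described by lists of the same pathways, to be read beside the 12.1% of all tested genes that were called. These lists were chosen with earlier results of these data known, so their shares are a description only. Where a pair of values stands in parentheses, the log2 fold change is first and the adjusted p second. Of 20 tested Hippo kinases and TEAD partners, 2 were called (10%), both higher, with a median of 0.01. MAP4K4, a kinase that activates LATS, had 244, 248 and 230.4 CPM in the libraries labelled sgZHX3-3, against 191, 210.5 and 209 CPM in those labelled Empty (0.24, adjusted p = 0.0147), and WWC1, the scaffold KIBRA, had a log2 fold change of 0.22 (0.0374). MAP4K4 lost its call without sgZHX3-3 2 (adjusted p = 0.0970) or with both Empty 2 and Empty 3 out (0.0586). WWC1 lost its call without sgZHX3-3 1, 2 or 3 or without Empty 2 or 3 (adjusted p from 0.0638 to 0.146), with library totals only (0.0701) or with both Empty 2 and Empty 3 out (0.304).

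Among 13 tested other YAP target genes, 4 were called (30.8%) and they moved in both directions, 3 higher and 1 lower, with a median of 0.10. IGFBP3, which binds insulin-like growth factors, fell to 197, 194 and 174 CPM in the libraries labelled sgZHX3-3, against 379.6, 361 and 335 CPM in those labelled Empty. There was a wide gap between the groups, with Empty 1 the highest library (−0.93, standard error 0.0633, adjusted p = 1.58e-05). ASAP1, a GTPase-activating protein for ARF, rose to 236, 236 and 209.9 CPM in the libraries labelled sgZHX3-3, against 155, 173 and 166 CPM in those labelled Empty (0.47, adjusted p = 6.04e-04). Both were called whichever single library was dropped, and also when Empty 2 and Empty 3 were dropped together. FJX1 (0.83, 0.0150) and TGFB2 (0.85, 0.0267), a growth factor of the TGF-β family, rose from low levels, with 1.86, 2.21 and 1.97 and 1.30, 1.023 and 1.23 CPM in the libraries labelled sgZHX3-3, against 1.41, 0.997 and 0.998 and 0.556, 0.693 and 0.713 CPM in those labelled Empty. TGFB2 shares exonic sequence with TGFB2-OT1 on the same strand, so its count is uncertain. FJX1 lost its call without sgZHX3-3 2 or without Empty 2 or 3 (adjusted p from 0.0767 to 0.0771) or with both Empty 2 and Empty 3 out (0.370). TGFB2 lost its call without sgZHX3-3 1, 2 or 3 or without Empty 2 or 3 (adjusted p from 0.0530 to 0.0793) or with both Empty 2 and Empty 3 out (0.175).

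Of 35 tested other actin-binding and contractile genes, 7 were called (20%), 5 higher and 2 lower, with a median of 0.07. MYH14, the heavy chain of non-muscle myosin IIC, rose to 286, 310.2 and 318 CPM in the libraries labelled sgZHX3-3, against 231, 225 and 226 CPM in those labelled Empty (0.42, standard error 0.0536, adjusted p = 4.47e-04). The villin gene VIL1, whose protein bundles actin in microvilli, shares exonic sequence with USP37 on the opposite strand, so its count is uncertain. VIL1 had 292, 320.2 and 347 CPM in the libraries labelled sgZHX3-3, against 265, 245 and 236 CPM in those labelled Empty (0.36, 0.00452). Both were called with any 1 library left out, but VIL1 lost its call with both Empty 2 and Empty 3 out (0.205). EVL, an Ena/VASP protein of growing filament ends, rose (0.31, 0.00686), and PDLIM3, a scarce PDZ-LIM protein of muscle at 0.321 to 0.481 CPM in the libraries labelled sgZHX3-3 and 0.684 to 1.39 CPM in those labelled Empty, fell (−1.41, 0.0114). EVL lost its call without Empty 3 (adjusted p = 0.0548) or with both Empty 2 and Empty 3 out (0.229). PDLIM3 lost its call without sgZHX3-3 2 or without Empty 2 (adjusted p from 0.0587 to 0.0725) or with both Empty 2 and Empty 3 out (0.445), the last at a log2 fold change of −0.78.

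Relatives of LGALS3, ANXA2 and S100A6 were called in 5 of 17 cases (29.4%), 4 higher and 1 lower, with a median of −0.01. ANXA5, annexin A5, fell to 173, 176 and 165 CPM in the libraries labelled sgZHX3-3, against 204, 203 and 214 CPM in those labelled Empty (−0.27, adjusted p = 0.00502). LGALS3BP, a secreted glycoprotein that binds galectin-3, rose to 314, 322 and 338 CPM in the libraries labelled sgZHX3-3, against 273, 232 and 234 CPM in those labelled Empty (0.40, 0.00220). Both were called with any 1 library left out and lost the call with Empty 2 and Empty 3 both left out (0.130 and 0.145). ANXA6 (0.18), ANXA3 (1.12) and ANXA11 (0.21) passed at adjusted p-values of 0.0429, 0.0448 and 0.0492. ANXA6 lost its call without sgZHX3-3 1, 2 or 3 or without Empty 2 or 3 (adjusted p from 0.0616 to 0.196), with library totals only (0.0895), with no expression filter (0.0565) or with both Empty 2 and Empty 3 out (0.348). ANXA3 lost its call without sgZHX3-3 1 or 2 or without Empty 1, 2 or 3 (adjusted p from 0.0571 to 0.222), with limma-voom (0.0649) or with both Empty 2 and Empty 3 out (0.241). ANXA11 lost its call without sgZHX3-3 1, 2 or 3 or without Empty 1, 2 or 3 (adjusted p from 0.0522 to 0.156), with library totals only (0.0895), with no expression filter (0.0546) or with both Empty 2 and Empty 3 out (0.300).

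Immediate early genes are SRF targets that answer to growth factor and stress signals through ELK factors and not mainly through MRTF. Of 9, 4 were called (44.4%), all lower, with a median log2 fold change of −0.29. EGR1, a zinc finger factor, had 70.6, 71.3 and 80.8 CPM in the libraries labelled sgZHX3-3, against 90.4, 86.3 and 102 CPM in those labelled Empty (−0.32, adjusted p = 0.0142). FOS, a subunit of AP-1, had 34.8, 33.8 and 33.6 CPM in the libraries labelled sgZHX3-3, against 38.0, 48.7 and 58.7 CPM in those labelled Empty (−0.51, 0.0284). FOSB (−1.22, 0.0156) and IER2 (−0.29, 0.0255) fell as well. EGR1 lost its call without sgZHX3-3 2 or without Empty 3 (adjusted p from 0.0850 to 0.0968) or with both Empty 2 and Empty 3 out (0.190). FOS lost its call without sgZHX3-3 1, 2 or 3 or without Empty 2 or 3 (adjusted p from 0.0659 to 0.131), with no expression filter (0.0823) or with both Empty 2 and Empty 3 out (0.453). The call of FOSB was lost without sgZHX3-3 2 or without Empty 2 (adjusted p from 0.0542 to 0.0759) or with both Empty 2 and Empty 3 out (0.397), and that of IER2 without sgZHX3-3 1 or 2 or without Empty 3 (adjusted p from 0.0730 to 0.156) or with both Empty 2 and Empty 3 out (0.273). With Empty 2 and Empty 3 both left out the log2 fold changes were −0.28, −0.16, −0.55 and −0.22 for EGR1, FOS, FOSB and IER2.

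The stress list was called in 7 of 13 cases (53.8%), all lower, with a median of −1.24. GCLM, a subunit of the enzyme that makes the glutathione precursor and an NRF2 target, fell to 87.7, 88.9 and 82.2 CPM in the libraries labelled sgZHX3-3, against 131, 171 and 179 CPM in those labelled Empty (−0.90, adjusted p = 3.58e-04), and kept its call in every setting tried. HMOX1 (−2.56, 0.0130), SRXN1 (−1.28, 0.0246), HSPA6 (−3.25, 0.0407) and TXNRD1 (−1.16, 0.0453) fell as well. The call of HMOX1 was lost without sgZHX3-3 2 or without Empty 2 (adjusted p from 0.0517 to 0.0670), with no expression filter (0.0585) or with both Empty 2 and Empty 3 out (0.0706). That of SRXN1 was lost without sgZHX3-3 1, 2 or 3 or without Empty 2 (adjusted p from 0.0647 to 0.102) or with no expression filter (0.0574). HSPA6 was not called without sgZHX3-3 1, 2 or 3 or without Empty 2 or 3 (adjusted p from 0.0669 to 0.122), with no expression filter (0.0945) or with both Empty 2 and Empty 3 out (0.110), and TXNRD1 was not called without sgZHX3-3 1, 2 or 3 or without Empty 2 or 3 (adjusted p from 0.0847 to 0.143) or with no expression filter (0.0789). With Empty 2 and Empty 3 both left out the log2 fold changes were nearer to 0, at −1.52, −0.72, −1.70 and −0.59 for HMOX1, SRXN1, HSPA6 and TXNRD1. In TXNRD1 the values were 273, 269.99 and 227 CPM in the libraries labelled sgZHX3-3, against 387, 652 and 683 CPM in those labelled Empty, so Empty 1 lay between the libraries labelled sgZHX3-3 and the other Empty libraries. Whether the spread in stress genes has a part in the values of the immediate early genes was not tested.

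**Figure D5:**
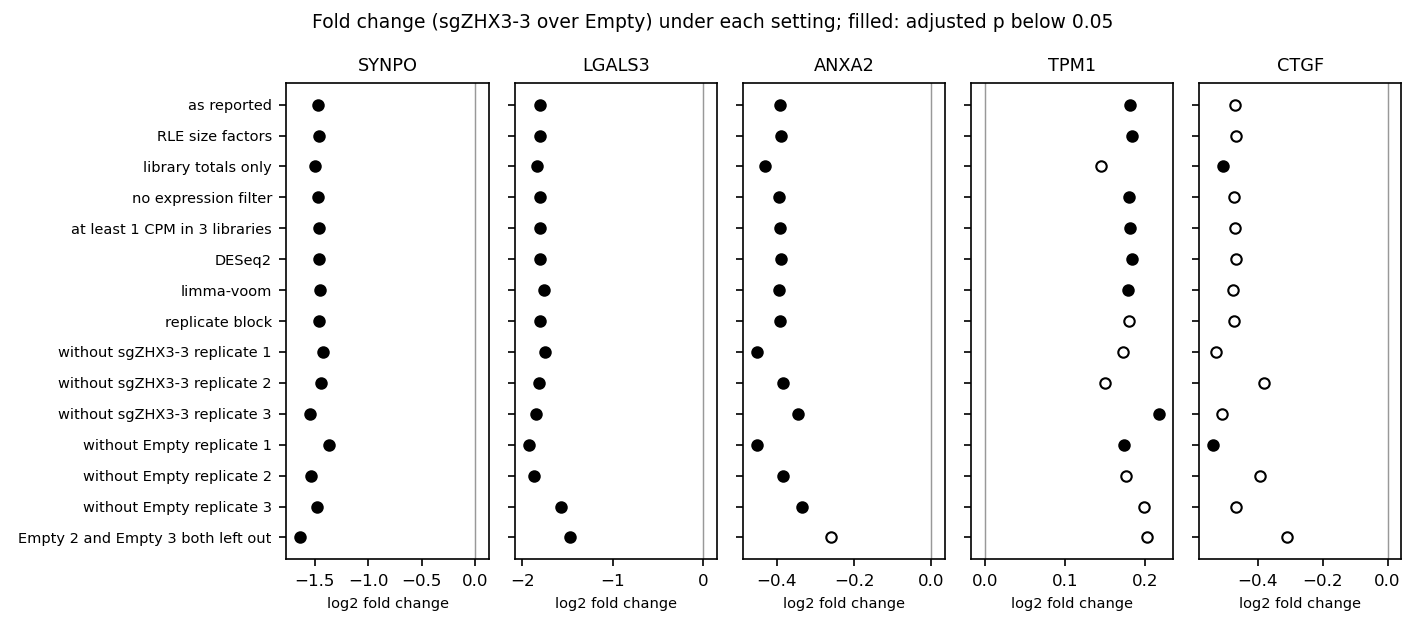
Log2 fold change (x axes, libraries labelled sgZHX3-3 over those labelled Empty) of the 4 called members and of CTGF under each way of processing the counts (rows), filled where the adjusted p is below 0.05. SYNPO and LGALS3 are filled in all rows, ANXA2 in all but that with Empty 2 and Empty 3 both left out, TPM1 in 8 rows of 15, and CTGF in 2.

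Across these settings the 4 called members kept their direction. SYNPO, at −1.63 to −1.37, and LGALS3, at −1.93 to −1.48, were called in each, while ANXA2 ran from −0.45 to −0.26, TPM1 from 0.14 to 0.22 and CTGF from −0.54 to −0.31.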

How the data were processed

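Total RNA of 6 EndoC-βH1 cultures was sequenced from stranded libraries, per the labels' protocols. The submitters' processing notes name STAR, featureCounts and the build hg38. Tool versions, gene models, the strand option and the handling of multi-mapping reads were not given there, so counts of genes with near-identical copies or overlapping exons (10 members overlap another gene of the table) are uncertain. Genes of the other lists, among them VIL1, TGFB2 and EVL, overlap other genes as well. The authors deposited unnormalised read counts, with gene symbols in rows and libraries in columns, per the file headers. Each column was matched to its sample through the group and replicate letter in its name, and 0 value columns remained unmatched.

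All else was computed from these counts. filterByExpr (minimum count 10, minimum total 15) kept 16199 genes. TMM factors ran from 0.984 to 1.02, and replicates varied by 6.91% (edgeR common biological coefficient of variation). The libraries labelled sgZHX3-3 were compared with those labelled Empty by the robust quasi-likelihood test of edgeR, with no covariate, Benjamini-Hochberg adjusted over all tested genes and called at 0.05. Standard errors were the log2 fold change over the root of F, and intervals are at 95%. CPM uses TMM library sizes, and levels per kb use the summed exon length in GENCODE release 29, whose hg38 gene coordinates are given. Software was edgeR 4.0.16, DESeq2 1.42.0 and limma 3.58.1 in R 4.3.3, with matplotlib 3.10.9 in Python 3.11.15 for plots. The procedure was tested on simulated data.

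The members, the 7 other gene lists and the tests were chosen with earlier results of these data known, among them the low values of SYNPO and LGALS3. All members may be named, and of each other list up to 5 called genes with the smallest adjusted p. CD68, CD3E, PNLIP, ACTG2, CDH5 and KDR were named after their values were seen. Other settings tried were library totals only or RLE size factors in place of TMM, limma-voom or DESeq2 in place of edgeR, a filter of 1 CPM in 3 libraries or none, a block for the replicate number, leaving out single libraries, and Empty 2 and Empty 3 both left out. Their use on the other lists was added after the data were seen. The edit at ZHX3 and protein sequences were not analysed here, and values of 1 list and of some genes are not reported here.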

Additional observations from a re-analysis of the deposited data

How the results depend on the processing

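No called member changed direction under any alternative. Called members numbered 1 higher and 3 lower. The number higher was 0 with library totals only, with the replicate block and with Empty 2 and Empty 3 both left out, 2 with DESeq2 and 0 to 2 with 1 library left out. The number lower was 3 to 6 with 1 library left out, and 6 without Empty 1, where ACTG1, SRF and CTGF were added. Over all genes, 1151 calls higher became 516 with the replicate block, 209 with Empty 2 and Empty 3 both left out and 474 to 1792 with 1 library left out. The 807 calls lower became 1272 with library totals only, 239 with the replicate block, 40 with Empty 2 and Empty 3 both left out and 184 to 1499 with 1 library left out. Of the single libraries, both counts were highest without Empty 1 and lowest without Empty 3. Where only Empty 1 remained, it was assumed to vary like the other group.

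Counts in the other lists moved as follows. With the replicate block, Hippo and TEAD partners had 0 calls of 2, other YAP targets 2 of 4, other actin-binding genes 4 of 7 and other annexins, galectins and S100 genes 2 of 5. With Empty 2 and Empty 3 both left out these 4 lists had 0, 2, 1 and 0 calls, and the immediate early genes 0 of 4. Hippo and TEAD partners had 1 call with library totals only, and the stress genes had 2 of 7 with no expression filter and 11 with DESeq2. With 1 library left out the calls were 0 to 6 (Hippo and TEAD), 2 to 5 (other YAP targets), 4 to 9 (other actin-binding), 2 to 5 (annexins, galectins and S100), 0 to 7 (immediate early) and 1 to 12 (stress). The cause of these moves was not tested.

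The replicate numbers did not pair the samples: deviations of libraries with the same number correlated at −0.138, 0.0685 and −0.142. With the number as a block, TPM1 lost its call (adjusted p = 0.135) and no other call among the members changed. Of the named genes of the other lists, the block ended the calls of FJX1 (0.0580), TGFB2 (0.0809), MAP4K4 (0.0584), WWC1 (0.116), ANXA6 (0.130), ANXA3 (0.0732) and ANXA11 (0.123). Among members that were not called, 3 changed sign with library totals only, 8 with Empty 2 and Empty 3 both left out and 2 to 7 with 1 library left out. Depth limits CNN2, MYOCD, WWTR1 and the 8 untested members most, and intervals cover the spread between these libraries only.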
